A study of Homo sapiens with 4 samples.

Results

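The mRNAs of 42 enzymes of central carbon metabolism were followed in RNA that had been precipitated with an antibody against PHGDH. They were chosen by name from the textbook pathways, among 44715 gene symbols listed, by a rule that uses no measured value. The set held 11 mRNAs for the steps from glucose to 3-phosphoglycerate, 6 for the steps from 3-phosphoglycerate to lactate, 6 for the pentose phosphate pathway, 5 for the entry of pyruvate into mitochondria-based metabolism, and 14 for the citric acid cycle and the use of citrate. The experiment was RNA immunoprecipitation followed by sequencing (RIP-seq) in HEK293T, an established line from human embryonic kidney, transformed and expressing SV40 large T antigen. Lysates kept in native conditions were incubated with anti-PHGDH antibody in 2 libraries and with an IgG control antibody in 2 libraries, described as biological replicates. The labels name no drug, transgene or knockdown in either group, so the groups differed by label in the antibody alone. Input RNA was not analysed here, so an mRNA's abundance in the lysate and its recovery cannot be told apart. The study asked whether PHGDH, itself a metabolic enzyme, associates with RNA in cells.

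Glycolysis splits glucose into triose phosphates and oxidises them to 3-phosphoglycerate, which PGAM1, the enolases and PKM convert to pyruvate. PHGDH withdraws 3-phosphoglycerate from this route by oxidising it to 3-phosphohydroxypyruvate, the first step of serine synthesis. The pentose phosphate pathway branches off earlier and supplies NADPH and ribose phosphate, and pyruvate dehydrogenase and pyruvate carboxylase feed the citric acid cycle. In proliferating lines such as HEK293T these routes run side by side, and PHGDH competes with PGAM1 for a common substrate. The comparison of enzymes before and after 3-phosphoglycerate follows from that position.

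Values are CPM, the reads of a gene scaled to a common total of reads assigned to genes in the library, and reads are whole numbers recovered from them. CPM is not divided by transcript length, so each mRNA is compared with itself across libraries and not with other mRNAs. The libraries held 1216477 to 3875746 reads. Anti-PHGDH replicates 1 and 2 and IgG replicate 2 listed 14518 to 16767 genes above 0, but IgG replicate 1, the deepest library, listed 4148. The share of reads from mitochondrially encoded genes was 28.8% and 8.69% with anti-PHGDH and 3.87% and 3.37% with IgG, replicate 1 first in each pair as throughout, and their part in the values of the enzyme mRNAs was not tested beyond a rescaling without them. The mRNAs taken as typical of HEK293T were VIM, KRT8, KRT18, PAX2, LHX1, NEFL, NEFM and EN2. Of these 8, 7 or 8 were above 0 in the 3 other libraries and 4 in IgG replicate 1. PAX2 and LHX1 reached at most 1.90 and 0.891 CPM, less than COL1A1, a marker of connective tissue cells, at up to 12.3 CPM. Of 12 markers of blood, liver, endothelial, connective, epidermal, glial and islet cells, 9 were at 0 in every library and the rest summed to at most 12.3 CPM. The mRNA of PHGDH, the protein targeted by the antibody, measured 6550.2 and 1531 CPM after anti-PHGDH precipitation against 0 and 461 CPM for IgG.

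Of the 42 enzyme mRNAs, 41 were recovered with both antibodies, but 23 of these in only 1 of the IgG libraries. No single one passed the test for a difference between the antibodies. A value of at least 5 CPM in 2 or more libraries was reached by 41 of the 42, and these were tested together with all other such genes, 9524 in all. In limma on log2(CPM + 1), with p-values adjusted by Benjamini-Hochberg across that whole table and called under 0.05, 0 of 41 were called higher with anti-PHGDH (0.0105% of all genes tested, which is PHGDH alone) and 0 of 41 lower (0% of all genes tested). At an unadjusted p under 0.05, limma had 2 of 41 in the higher direction (2.74% of all genes tested), PKM and TPI1, and none in the lower. edgeR's quasi-likelihood test and DESeq2 on the recovered reads called 0 of 41 in either direction at the adjusted threshold. Without adjustment edgeR gave 0 of 41 higher (0.22% of all genes tested) and 0 of 41 lower (1.7%), and DESeq2 gave 0 of 41 in either direction (89 of the 9524 genes higher and 149 lower). The limma adjusted p was between 0.677 and 0.912 for all 41.

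A count that needs no variance estimate gave the same picture. Only ALDOA, 1 of 41, exceeded each IgG library at least 2-fold in each anti-PHGDH library on CPM + 1, against 9.3% of all genes tested. No member was 2-fold lower in every pair (0.084% of all genes tested). ALDOA was also the only 1 of the 41 to reach 5 CPM in both anti-PHGDH libraries and in no IgG library, so it entered the test through the group in which it was high. The groups did not overlap in the higher direction for 8 of 41 (38.3% of all genes tested), which were ALDOA, ALDOC, PGAM1, ENO2, PKM, DLAT, IDH1 and IDH3G. They did not overlap in the lower direction for 4 of 41 (6.16% of all genes tested), which were PGK1, LDHB, TALDO1 and PDHA1. For LDHB and PDHA1, anti-PHGDH replicate 2 was at 0.954 and 0.959 times IgG replicate 2. Mitochondrially encoded reads, 8.69% and 3.37% of these libraries, shift CPM by more than that gap. On CPM without those genes, the groups overlap for LDHB and PDHA1. The same rescaling adds GPI, PGD, PDHB, OGDH, SUCLG1 and FH to the mRNAs without overlap in the higher direction. Both counts therefore depend on scaling, and the shares over all genes tested were not counted on that scale. For 6 of the 8 higher mRNAs, PGAM1 and PKM excepted, IgG replicate 1 was at 0.

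**Figure D1:**
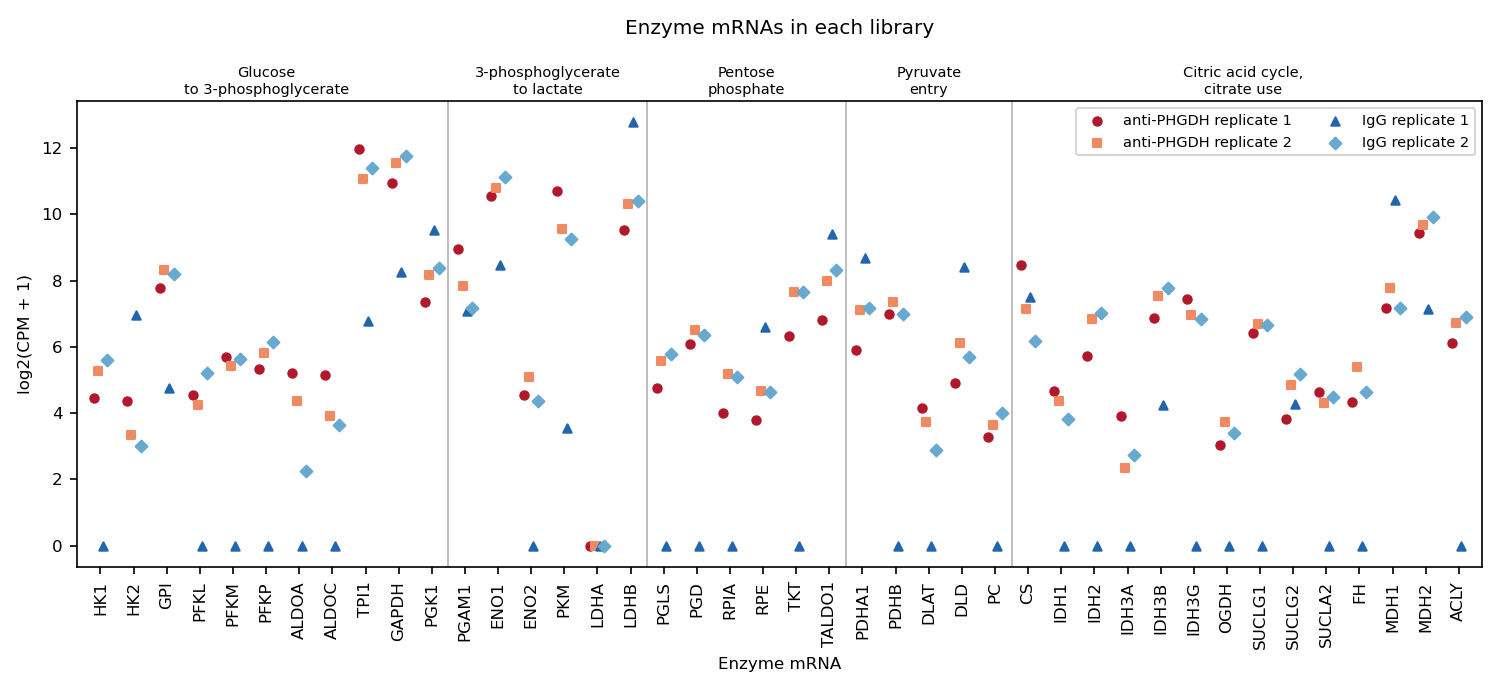
Level of each of the 42 enzyme mRNAs, as log2(CPM + 1), in the 4 libraries, ordered by pathway step. Anti-PHGDH replicates 1 and 2 and IgG replicate 2 lie close together for most mRNAs, IgG replicate 1 is at 0 for 23 of the 41 tested, and LDHA is at 0 in all 4 libraries.

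The first block of glycolysis carries glucose to 3-phosphoglycerate. Its log2 fold changes were positive for 9 mRNAs and negative for 2 (positive for 7687 of the 9524 genes tested). Their median of 2.06 became -0.15 without IgG replicate 1. Of 11 tested, 2 were without overlap higher with anti-PHGDH on CPM (38.3% of all genes tested) and 1 lower (6.16%), and 0 passed the limma threshold. TPI1, which interconverts the triose phosphates, reached 4013 and 2172 CPM in the anti-PHGDH pair (mean 3092 ± 1302, SD, n = 2) and 109 and 2734 CPM in the IgG pair (mean 1422 ± 1856, SD, n = 2). The IgG libraries thus bracketed anti-PHGDH replicate 2, and the fold change rested on the low value of IgG replicate 1. The fitted log2 fold change of 2.43 (SE 1.16; limma adjusted p = 0.677) was 0.11 without IgG replicate 1. GAPDH, which oxidises glyceraldehyde 3-phosphate, stood at 1974 and 3029 CPM in the anti-PHGDH replicates, compared with 307 and 3489 CPM in the IgG replicates. Both anti-PHGDH values lay between the IgG values. The GAPDH log2 fold change of 1.24 (SE 1.13; limma adjusted p = 0.677) turned to -0.51 without IgG replicate 1.

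ALDOA and ALDOC encode aldolases, which cleave fructose 1,6-bisphosphate. ALDOA measured 36.2 and 19.7 CPM after anti-PHGDH precipitation (122 and 24 reads) against 0 and 3.80 CPM for IgG (0 and 6 reads). Both anti-PHGDH libraries were above both IgG libraries, and the lower of them was 4.32 times the higher IgG library on CPM + 1. ALDOA had a log2 fold change of 3.66 in the fit on all libraries (SE 2.52; limma adjusted p = 0.677) and 2.53 (limma adjusted p = 0.064, unadjusted p = 8.2e-04) without IgG replicate 1. The excess within replicate number 2 was 5.19-fold, with a 95% interval of 2.07 to 15.5 that covers counting error only. ALDOA lies on chromosome 16 (30064279 to 30070420, RefSeq GRCh38.p14) and overlaps a second protein-coding gene model, LOC112694756, which was given 3 and 1 reads with anti-PHGDH and none with IgG. How reads shared by overlapping models were treated is not given in the sources used here, so the level of ALDOA is uncertain. ALDOC reached 34.5 and 14.0 CPM in the anti-PHGDH pair and 0 and 11.4 CPM in the IgG pair, and its excess within replicate number 2 was 1.23-fold (95% counting interval 0.594 to 2.52).

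The hexokinases, phosphofructokinases and GPI complete the block. HK1, PFKL, PFKM and PFKP, which phosphorylate glucose or fructose 6-phosphate, were at 0 in IgG replicate 1 and at 18.1 to 69.6 CPM in the other libraries. HK2, the second hexokinase, stood at 19.6 and 9.04 CPM in the anti-PHGDH replicates, compared with 125 and 6.97 CPM in the IgG replicates, so IgG replicate 1 stood above the 3 other libraries. PFKL was the lowest of the 41 tested relative to IgG within replicate number 2, at 0.501 times (95% counting interval 0.292 to 0.833), on 22 and 57 reads. GPI, the glucose 6-phosphate isomerase, measured 217 and 318 CPM after anti-PHGDH precipitation against 26.3 and 292 CPM for IgG.

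The enzymes on either side of 3-phosphoglycerate ranked the libraries in opposite order, although neither passed the test. PGK1, which forms 3-phosphoglycerate, reached 164 and 290.2 CPM in the anti-PHGDH pair (mean 227 ± 89.4, SD, n = 2) and 745 and 332 CPM in the IgG pair (mean 539 ± 292, SD, n = 2). Both anti-PHGDH libraries lay below both IgG libraries. PGAM1, which converts 3-phosphoglycerate to 2-phosphoglycerate and so competes with PHGDH for it, stood at 501 and 227 CPM in the anti-PHGDH replicates (mean 364 ± 194, SD, n = 2), compared with 134 and 143 CPM in the IgG replicates (mean 138 ± 6.67, SD, n = 2). Both anti-PHGDH libraries lay above both IgG libraries, and the IgG libraries were close to each other. The log2 fold changes were -1.19 for PGK1 (SE 1.40; limma adjusted p = 0.677) and 1.28 for PGAM1 (SE 1.49; limma adjusted p = 0.677), the latter -1.22 after centring on library medians. PGAM1 was thus below the median of all genes tested (1.92) in the fit on 4 libraries. Without IgG replicate 1 the log2 fold changes of PGK1 and PGAM1 were -0.61 and 1.23 against a median of 0.14, so the value of PGAM1 depended little on that library. Anti-PHGDH replicate 1 moved PGAM1 more, to 0.71 when it was left out. Within replicate number 2, PGAM1 was 1.59 times as high with anti-PHGDH (95% counting interval 1.33 to 1.90) and PGK1 0.873 times (0.761 to 1.00).

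Reads of PGK1 over reads of PGAM1 within a library do not depend on how the library is scaled. This ratio was 0.327 and 1.28 with anti-PHGDH, and 5.57 and 2.32 with IgG. It was lower in both anti-PHGDH libraries, with a mean difference of -2.48 on the log2 scale. The exact two-sided permutation test of this ratio gave p = 0.333, the smallest value that 2 libraries against 2 can give. The 2 anti-PHGDH libraries also differed from each other, by more than their counting intervals of 0.296 to 0.360 and 1.09 to 1.5. PGK1 lies on chromosome X (78104248 to 78129295) and PGAM1 on chromosome 10 (97426191 to 97433444, both RefSeq GRCh38.p14). Both have processed copies elsewhere in the genome, and the copies listed under their names with a P number held at most 1 read in any library. PGAM4, a gene closely similar to PGAM1, was given 3, 1, 0 and 3 reads.

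**Figure D2:**
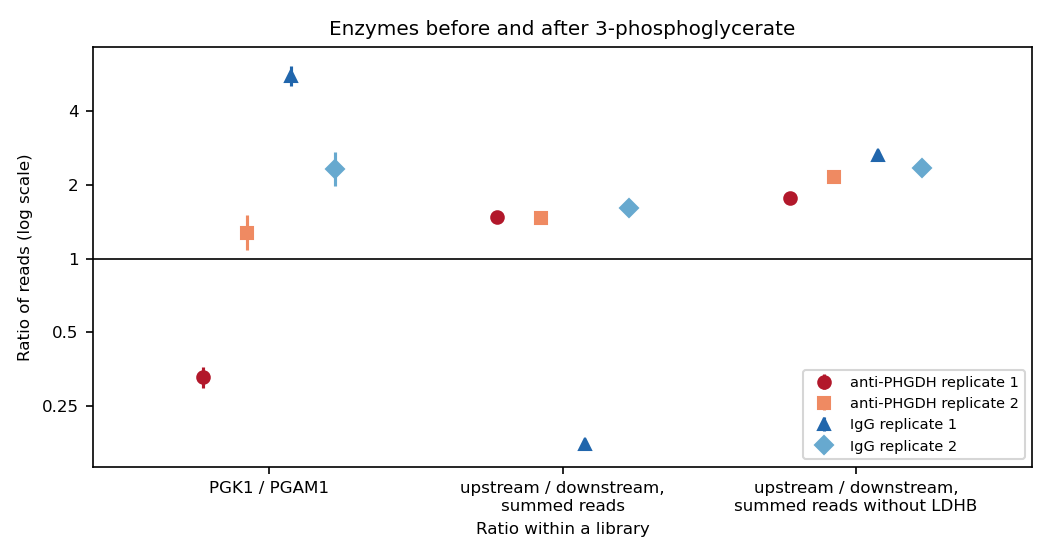
Ratio of reads within each library, on a log axis with 95% counting intervals, for PGK1 over PGAM1 and for the summed mRNAs upstream over downstream of 3-phosphoglycerate, with and without LDHB. PGK1 over PGAM1 is 0.327 and 1.28 with anti-PHGDH and 5.57 and 2.32 with IgG, while the summed ratio separates IgG replicate 1 (0.174) from the 3 other libraries (1.47 to 1.62).

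For the blocks to which PGK1 and PGAM1 belong, the direction depended on IgG replicate 1 and, for summed reads, on LDHB. The median log2 fold change was 2.06 over the 11 upstream mRNAs and 1.28 over the 5 tested downstream mRNAs, a difference of 0.78 that is smaller than the spread of 1.72 between replicates. Without IgG replicate 1 the medians were -0.15 and 0.45, and the difference turned to -0.60. Summed reads upstream over downstream were 1.47 in each anti-PHGDH library, 0.174 in IgG replicate 1 and 1.62 in IgG replicate 2. The low ratio in IgG replicate 1 came with LDHB, which held 27295 of the 29218 downstream reads there. With LDHB left out the ratios were 1.77 and 2.15 with anti-PHGDH and 2.65 and 2.34 with IgG, lower in both anti-PHGDH libraries. PGK1 and PGAM1 are part of these sums, so this adds no separate evidence to their own ratio. The difference of medians on 4 libraries went the other way, at 0.11 with the lactate dehydrogenases left out. TPI1 over ENO1, another pair of steps across the branch, was 2.64 and 1.22 with anti-PHGDH and 0.311 and 1.22 with IgG, so the groups overlapped.

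Of the 5 mRNAs tested for the steps from 3-phosphoglycerate to lactate, 3 were without overlap higher, PGAM1, ENO2 and PKM (38.3% of all genes tested), and 1 was lower, LDHB (6.16%). PKM, which encodes a pyruvate kinase, measured 1684 and 751 CPM after anti-PHGDH precipitation (mean 1218 ± 659, SD, n = 2) against 10.8 and 615 CPM for IgG (mean 313 ± 427, SD, n = 2). Its log2 fold change of 3.72 had the smallest unadjusted p of the set (SE 1.41; limma unadjusted p = 0.0083, adjusted p = 0.677). It was 0.87 without IgG replicate 1. Within replicate number 2, PKM was 1.22 times as high (95% counting interval 1.11 to 1.34), a difference smaller than the 2.24-fold between the anti-PHGDH replicates. ENO1, the main enolase of most tissues, reached 1518 and 1784 CPM in the anti-PHGDH pair and 352 and 2243 CPM in the IgG pair. It was bracketed by the IgG libraries, and its log2 fold change of 0.89 became -0.45 without IgG replicate 1. ENO2, the enolase known from neurons, stood at 22.3 and 32.9 CPM in the anti-PHGDH replicates, compared with 0 and 19.6 CPM in the IgG replicates.

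The lactate dehydrogenase subunits stood out for another reason. LDHB, the subunit that favours oxidation of lactate, measured 746 and 1283 CPM after anti-PHGDH precipitation against 7043 and 1345 CPM for IgG. Both anti-PHGDH libraries were below both IgG libraries on CPM, but anti-PHGDH replicate 2 was at 0.954 times IgG replicate 2 (95% counting interval 0.893 to 1.02). The order of these libraries reverses on CPM without mitochondrially encoded genes. LDHB had a log2 fold change of -1.65 (SE 1.12; limma adjusted p = 0.677) that became -0.46 without IgG replicate 1. LDHA, the subunit that favours formation of lactate, was listed at 0 in all 4 libraries and was not tested. The authors' tables list it on a row of its own, and the RefSeq table gives no gene overlapping it on chromosome 11. A value of 0 in every library limits LDHA to 3 reads in each, from 0.774 CPM in IgG replicate 1 to 2.47 CPM in anti-PHGDH replicate 2, if its reads were counted like those of other genes, which was not tested.

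None of the 6 pentose phosphate mRNAs was without overlap higher with anti-PHGDH (38.3% of all genes tested), and 1 was lower (6.16%). Anti-PHGDH replicate 1 was above IgG replicate 2 for 0 of the 6 (55.6% of all genes tested), and anti-PHGDH replicate 2 was above it for 4 (63.1%). These counts are on CPM, which the 28.8% of mitochondrially encoded reads in anti-PHGDH replicate 1 lowers there. On CPM without mitochondrially encoded genes, PGD was without overlap higher. The log2 fold change was positive for 4 of the 6, all at 0 in IgG replicate 1. TALDO1, a transaldolase that joins the pathway to glycolysis, reached 111 and 252 CPM in the anti-PHGDH pair (mean 182 ± 99.7, SD, n = 2) and 681 and 322 CPM in the IgG pair (mean 501 ± 254, SD, n = 2). Its groups did not overlap. The log2 fold change of -1.47 (SE 1.43; limma adjusted p = 0.677) became -0.93 without IgG replicate 1. TKT, the transketolase of the same non-oxidative branch, stood at 79.3 and 202 CPM in the anti-PHGDH replicates, compared with 0 and 199 CPM in the IgG replicates. Replicate number 2 gave nearly equal values with both antibodies, 1.01 times (95% counting interval 0.855 to 1.20), and the log2 fold change of 3.17 turned to -0.65 without IgG replicate 1. PGLS and PGD, of the oxidative branch, and RPIA, which isomerises ribose phosphate, were at 0 in IgG replicate 1 and at 15.2 to 89.6 CPM elsewhere. RPE, the ribulose phosphate epimerase, was at 95.5 CPM in IgG replicate 1 and at 12.8 to 24.7 CPM elsewhere.

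The mRNAs for the entry of pyruvate went in both directions. PDHA1 and PDHB encode the subunits of the E1 component of pyruvate dehydrogenase, which form a single enzyme. PDHA1 measured 59.1 and 137 CPM after anti-PHGDH precipitation against 409 and 143 CPM for IgG, lower in both anti-PHGDH libraries (log2 fold change -1.41, SE 1.59; limma adjusted p = 0.677). PDHB reached 127 and 162 CPM in the anti-PHGDH pair and 0 and 127 CPM in the IgG pair, a log2 fold change of 3.67 (SE 2.07; limma adjusted p = 0.677). IgG replicate 1 was the highest library for PDHA1 and at 0 for PDHB. Without it the log2 fold changes were smaller and still of opposite sign, at -0.66 and 0.17. DLD, the E3 component, stood at 29.1 and 68.2 CPM in the anti-PHGDH replicates, compared with 342 and 51.3 CPM in the IgG replicates. DLAT, the E2 component, measured 16.6 and 12.3 CPM after anti-PHGDH precipitation against 0 and 6.33 CPM for IgG, and its lower anti-PHGDH library was 1.82 times its higher IgG library on CPM + 1. PC, pyruvate carboxylase, reached 8.62 and 11.5 CPM in the anti-PHGDH pair and 0 and 15.2 CPM in the IgG pair.

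Among the 14 mRNAs of the citric acid cycle and citrate use, 2 were without overlap higher on CPM, IDH1 and IDH3G (38.3% of all genes tested), and 0 lower (6.16%). CS, the citrate synthase that opens the cycle, stood at 358 and 141 CPM in the anti-PHGDH replicates (mean 250 ± 153, SD, n = 2), compared with 182 and 72.2 CPM in the IgG replicates (mean 127 ± 77.6, SD, n = 2). Between libraries of the same number, which were not taken as pairs, CS was higher with anti-PHGDH, but the groups overlapped. The excess was 1.96-fold within number 2 (95% counting interval 1.54 to 2.5), and the log2 fold change was 0.97 with all libraries and 1.63 without IgG replicate 1 (limma adjusted p = 0.706). MDH1, the cytosolic malate dehydrogenase, measured 143 and 220.3 CPM after anti-PHGDH precipitation against 1387 and 143 CPM for IgG. MDH2, the mitochondrial form, reached 700 and 815 CPM in the anti-PHGDH pair and 142 and 975 CPM in the IgG pair. IgG replicate 1 was thus the highest library for the cytosolic form and the lowest for the mitochondrial form, and both log2 fold changes, -1.33 and 1.02, changed sign without it (0.31 and -0.37).

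Among the other mRNAs of the cycle, IDH3G and IDH1 were without overlap higher on CPM, and for the rest the groups overlapped on CPM. IDH3G, a regulatory subunit of the NAD-dependent isocitrate dehydrogenase, stood at 173 and 124 CPM in the anti-PHGDH replicates, compared with 0 and 114 CPM in the IgG replicates, and its log2 fold change of 3.78 was the highest of the set (SE 2.08; limma adjusted p = 0.677). The value was 0.36 without IgG replicate 1. The gene overlaps SSR4, which held 27 to 3643 reads per library, so its count is uncertain. IDH3B, another subunit of the same enzyme, measured 115 and 185 CPM after anti-PHGDH precipitation against 17.8 and 219.7 CPM for IgG. IDH1, which makes cytosolic NADPH, reached 24.7 and 19.7 CPM in the anti-PHGDH pair and 0 and 13.3 CPM in the IgG pair. FH, fumarase, was 1.71 times as high with anti-PHGDH within replicate number 2 (95% counting interval 1.10 to 2.68). On CPM it was lower in anti-PHGDH replicate 1 (19.0 CPM) than in IgG replicate 2 (24.1 CPM). That order reverses on CPM without mitochondrially encoded genes. IDH2, IDH3A, OGDH, SUCLG1, SUCLA2 and ACLY were at 0 in IgG replicate 1 and had log2 fold changes from 1.68 to 3.23, which became -0.75 to 0.38 without that library. SUCLG2, a succinyl-CoA ligase subunit, stood at 13.1 and 28.0 CPM in the anti-PHGDH replicates, compared with 18.3 and 35.5 CPM in the IgG replicates.

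The sign of 19 of the 41 fold changes turned from positive to negative when IgG replicate 1 was left out, and 2 turned from negative to positive. Among the 41 mRNAs tested, 23 were at 0 there (61.9% of all genes tested were). Another 8 were above the 3 other libraries by at least 2-fold (12.2% of all genes tested), namely HK2, PGK1, LDHB, RPE, TALDO1, PDHA1, DLD and MDH1. A further 8 were above 0 and below the other libraries (17.2% of all genes tested), which were GPI, TPI1, GAPDH, PGAM1, ENO1, PKM, IDH3B and MDH2. Only CS and SUCLG2 lay inside the range of the other libraries. mRNAs of 1 pathway, and even of 1 enzyme complex, were spread over these classes. The members at 0 had a median level of 28.1 CPM in the other libraries and the 18 above 0 (38.1% of all genes tested) a median of 245 CPM. Over all genes tested these medians were 17.4 and 45.4 CPM, so those at 0 were also the lower ones there. Within replicate number 1, where this IgG library is the control, 31 of 41 were at least 2-fold higher with anti-PHGDH (76.6% of all genes tested) and 8 of 41 lower (15.3%). The median log2 fold change of the 41 was 2.06 (1.92 over all genes tested) and -0.15 without IgG replicate 1 (0.14 over all genes tested).

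**Figure D3:**
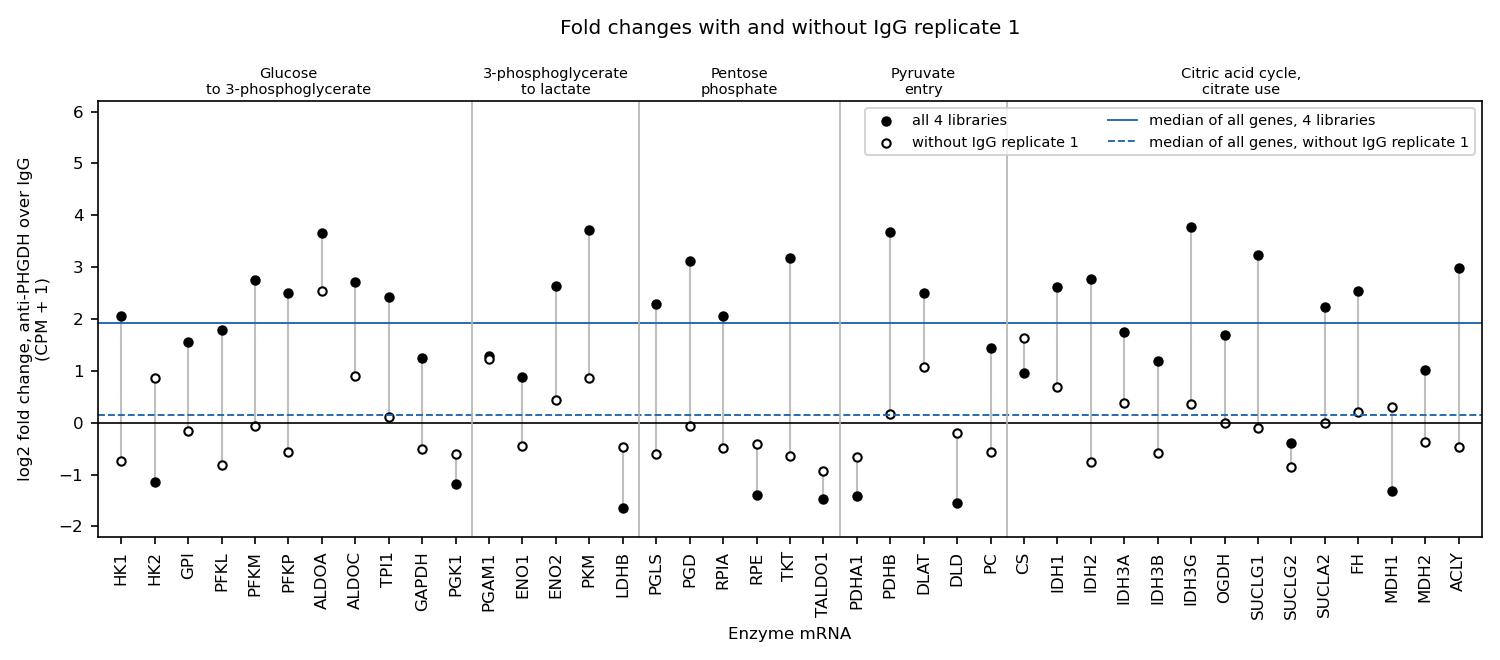
Log2 fold change of anti-PHGDH over IgG for the 41 enzyme mRNAs tested, with all 4 libraries (filled) and without IgG replicate 1 (open), and the medians of all genes tested as lines at 1.92 and 0.14. The median of the enzyme mRNAs moves from 2.06 to -0.15 when that library is left out, while PGAM1 (1.28 and 1.23) stays in place.

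Without IgG replicate 1, a smaller share of the enzyme mRNAs than of all genes tested was higher with anti-PHGDH on CPM. Both anti-PHGDH libraries were above IgG replicate 2 for 10 of 41 (43.9% of all genes tested) and both were below it for 16 of 41 (25.1% of all genes tested). These counts depend on scaling. On CPM without mitochondrially encoded genes, both anti-PHGDH libraries were also above IgG replicate 2 for GPI, PGD, PDHB, OGDH, SUCLG1, FH and MDH1. LDHB and PDHA1 were then no longer below it in both. The shares over all genes tested were not counted on that scale. The median log2 difference of anti-PHGDH replicate 1 over IgG replicate 2 was -0.43 over the 41 and 0.16 over all genes tested. With CPM rescaled without mitochondrially encoded genes it was 0.01 over the 41 and 0.58 over the other genes tested. The 2-fold rule in every pair again gave ALDOA alone, 1 of 41 (10% of all genes tested), with the same limit from the filter, and 0 of 41 lower (0.388% of all genes tested). The limma fit on 3 libraries called 0 of 41 in either direction at the adjusted threshold (1.04% of all genes tested higher and 0.0315% lower). Without adjustment the same limma fit gave 1 of 41 higher, ALDOA (7.39% of all genes tested), and 0 of 41 lower (0.777%).

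Within replicate number 2, where both libraries listed a like number of genes, the median of the enzyme mRNAs was almost equal with both antibodies, while single mRNAs differed. The median log2 difference of anti-PHGDH over IgG was 0.02 over the 41 and 0.18 over all genes tested. With CPM rescaled without mitochondrially encoded genes, this median was 0.10 over the 41 and 0.25 over the other genes tested. On CPM the difference was positive for 21 and negative for 20 of them, and positive for 63.1% of all genes tested. With the rescaling, LDHB and PDHA1 turned positive. The difference reached 2-fold for 1 of 41 (12.5% of all genes tested), ALDOA, and 0 were 2-fold lower (1.97% of all genes tested). The 95% counting interval of the ratio lay above 1 for 8 mRNAs (ALDOA, PGAM1, ENO2, PKM, PDHB, CS, FH and MDH1) and below 1 for 7 (PFKL, TPI1, GAPDH, ENO1, TALDO1, IDH3B and MDH2). The shares over all genes tested were 18.5% above 1 and 7.25% below. The upper bound was under 2 for 31 of the 41 (50.9% of all genes tested), while for 10, among them ALDOA, DLAT and HK2, the depth allowed a ratio of 2 or more. The intervals compare 2 libraries and not the antibodies, since they leave out the spread between replicates. They are on CPM, and the rescaling moves them up, so that of IDH3B then includes 1.

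**Figure D4:**
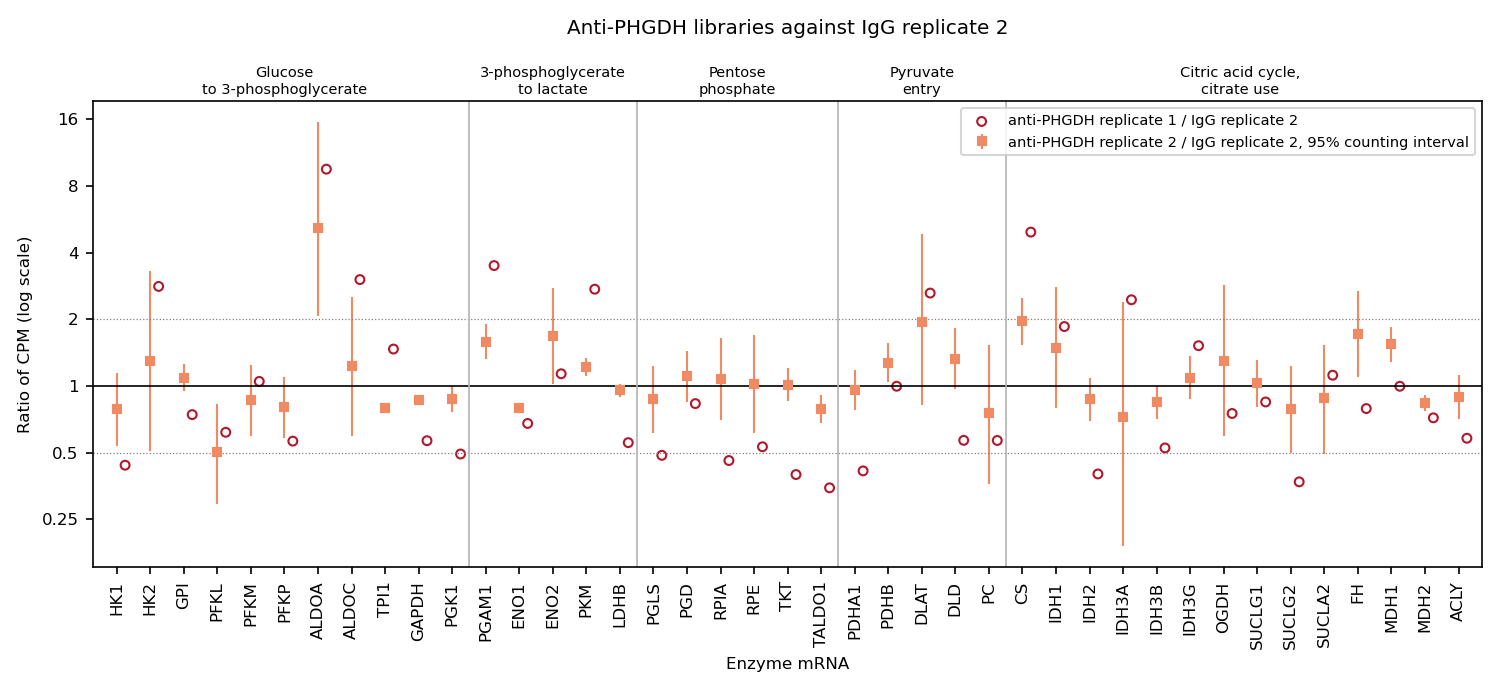
Ratio of CPM, on a log axis, of anti-PHGDH replicate 2 (squares, with 95% counting intervals) and anti-PHGDH replicate 1 (circles) to IgG replicate 2 for the 41 enzyme mRNAs tested; dotted lines mark 0.5 and 2. ALDOA reaches 5.19 in replicate 2, most of the others lie near 1, and the anti-PHGDH replicates often fall on different sides of 1.

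The anti-PHGDH replicates differed from each other more than replicate 2 differed from IgG replicate 2. The median absolute log2 difference over the 41 mRNAs was 0.78 for the anti-PHGDH replicates and 0.31 for the libraries numbered 2 (0.62 and 0.39 over all genes tested). Replicate 1 was at least 2-fold above replicate 2 for 6 of the 41 (13.5% of all genes tested) and at least 2-fold below it for 8 (14.4%). The 6 higher in replicate 1 were IDH3A, CS, ALDOC, PKM, PGAM1 and HK2, by 3.40, 2.53, 2.47, 2.24, 2.21 and 2.17 times. Among those lower there were TKT, at 0.392 times, TALDO1, PDHA1, DLD and RPIA. The larger share of mitochondrially encoded reads in replicate 1 lowers the CPM of every other gene in that library. With CPM rescaled without those genes, the median log2 difference between the replicates was -0.15 over the 41 mRNAs and 0.31 over the other genes tested, against -0.50 and -0.03 before.

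The mRNAs were also divided by the site of the enzyme in the cell. Of 25 cytosolic and 16 mitochondrial enzyme mRNAs tested, 6 and 2 were without overlap higher on CPM (38.3% of all genes tested). The medians of the log2 difference within replicate number 2 were 0.02 and -0.01. Summed reads of cytosolic over mitochondrial enzymes were 6.45 and 5.60 with anti-PHGDH against 9.92 and 6.06 with IgG. The summed ratio of glycolytic to citric acid cycle mRNAs was 6.16 and 5.22 with anti-PHGDH and 5.07 and 5.78 with IgG, so the groups overlapped. The balance within enzyme pairs changed most in IgG replicate 1. MDH1 made up 90.7% of the malate dehydrogenase reads there (95% Wilson interval 90.0 to 91.5%), against 16.9% and 21.3% with anti-PHGDH and 12.8% in the other IgG library. IDH1 made up 32.3% and 14.9% of the reads of IDH1 and IDH2 with anti-PHGDH and 9.33% in IgG replicate 2, with 0 reads for both in IgG replicate 1.

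Other genes of the same pathways were taken from a list of 56, of which 29 reached the level for testing. None of the 29 passed the limma threshold in the fit on 4 libraries, and 1 had an unadjusted p under 0.05, G6PC3, which encodes the widely expressed glucose 6-phosphatase. G6PC3 measured 724 and 86.3 CPM after anti-PHGDH precipitation (2436 and 105 reads) against 0 and 28.5 CPM for IgG (0 and 45 reads). Both anti-PHGDH libraries were above both IgG libraries, and the anti-PHGDH replicates differed from each other by more than the lower of them differed from IgG replicate 2. G6PC3 had a log2 fold change of 5.53 (SE 2.12; limma adjusted p = 0.677) that became 3.09 without IgG replicate 1 (limma adjusted p = 0.041), where it was the only 1 of the 29 under the threshold (1.04% of all genes tested were called higher). The excess within replicate number 2 was 3.03-fold (95% counting interval 2.12 to 4.40). It was the only gene of the 29 that was 2-fold higher in every pair (9.3% of all genes tested), and 0 were 2-fold lower (0.084%). The groups did not overlap in the higher direction for 9 of the 29 (38.3% of all genes tested) and in the lower direction for 1, ME2 (6.16%). These counts too are on CPM, and without mitochondrially encoded genes the groups overlap for ME2.

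In the serine branch itself, PHGDH mRNA was 3.32 times as high with anti-PHGDH within replicate number 2 (95% counting interval 3.05 to 3.62), and its limma adjusted p of 0.0062 became 0.66 without IgG replicate 1. PSAT1, which acts next, reached 123 and 150.4 CPM in the anti-PHGDH pair and 0 and 111 CPM in the IgG pair, a 1.36-fold excess within replicate number 2 (1.10 to 1.68). For PSPH, the phosphatase that releases serine, and for SHMT2, which uses it in mitochondria, the groups overlapped on CPM. Without mitochondrially encoded genes they did not overlap for PSPH, which was higher with anti-PHGDH. PSPH had a log2 fold change of 2.78 and SHMT2 of -0.26, with limma adjusted p = 0.677 and 0.909.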

How the data were processed

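RNA precipitated with anti-PHGDH or IgG antibody was sequenced from HEK293T lysates. The authors deposited 1 CPM table per library, and STAR 2.5.4b, featureCounts and hg38 are named in the submitters' processing notes. Annotation, strand, duplicate and overlap handling are not given in the sources used here. Whole reads were recovered from the CPM steps (99.98% to 100% of values above 0), and the members' values were all whole. Depth was 1216477 to 3875746 reads, and a count of 0 allows 3 reads.

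limma 3.58.1 (R 4.3.3) was run on log2(CPM + 1) with an intensity trend over genes with at least 5 CPM in 2 libraries. Fold changes on this scale understate low genes. The prior degrees of freedom were infinite, so a gene's SE follows the trend and not its own spread. edgeR 4.0.16 and DESeq2 1.42.0 were alternatives, with other pseudocounts, filters, scalings, blocks and left-out libraries. Ratio intervals are exact, from counting error only. The limma fit and the 2-fold rule were run on simulated libraries that shared a common profile apart from set changes. None of them had the many zeros of IgG replicate 1, so the simulation does not show how the procedures behave on these data.

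The members, gene lists and tests were chosen with earlier results of these data known. Values in every library were given for mRNAs past the threshold or the 2-fold rule, PGK1 and PGAM1, the 2 highest per pathway block and the 2 smallest p per direction, and most others were added. Replicate numbers were not taken to pair the libraries.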

Additional observations from a re-analysis of the deposited data

How the results depend on the processing

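No enzyme mRNA was called in either direction in the reported fit or in 18 of the 19 alternative fits. The exception was the fit without IgG replicate 2, which rests on IgG replicate 1 as its only control and called 29 of 41 higher and 6 lower (7129 and 1032 of the 9524 genes tested), so the fits that each left out 1 library ran from 0 to 29 and from 0 to 6. With the replicate block, limma called 0 members (4 of all genes), and the block changed no call among them. The deviations of same-numbered libraries correlated with r = 0.0058 across all genes tested and 0.16 across the 3629 above 0 in IgG replicate 1. The count 2-fold higher in every pair (1) was 3 at 1.5-fold (PGAM1 and DLAT added; 1664 of all genes), 0 with a filter of 20 CPM, which ALDOA does not pass, 0 after centring on library medians and 0 after quantile normalization. It ran from 1 to 30 without 1 library, and the count lower ran from 0 to 8, both highest without IgG replicate 2 (7206 and 1209 of all genes). The difference of upstream and downstream medians (0.78) was -1.24 after quantile normalization, ran from -0.60 to 2.30 without 1 library, and was also negative in edgeR (-0.85) and DESeq2 (-0.89). Its sign is therefore not settled.

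After centring on medians the log2 fold change was -0.0711 for TPI1, -1.26 for GAPDH, -1.22 for PGAM1, -1.61 for ENO1 and -1.48 for MDH2. The median of IgG replicate 1 is 0, which sets the shift that centring gives it. Without 1 library the range was -0.51 to 2.99 for GAPDH, -0.45 to 2.22 for ENO1, -0.65 to 7.0 for TKT, -2.96 to 0.31 for MDH1 and -0.37 to 2.41 for MDH2. PGAM1 ran from 0.71 to 1.85 and PGK1 from -1.77 to -0.61. The median over all genes tested (1.92) was 1.77 with TMM factors, -0.57 after centring and -0.05 after quantile normalization, and that of the enzyme mRNAs (2.06) was 1.91, -0.44 and 0.39. Depth limits the mRNAs with few reads, such as ALDOA with 6 and IDH3A with 5 in a library.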
